A study of Homo sapiens with 7 samples.

Results

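O-GlcNAc is a single sugar attached to serines or threonines of proteins in the nucleus and cytoplasm, and the sites described here are the O-GlcNAc peaks that carried SPT5 but no RNA polymerase II (Pol II). They were the peaks of the O-GlcNAc list on chromosomes 1 to 22 that an SPT5 peak overlapped by at least 1 bp and that no Pol II peak overlapped. There were 669 of them among 8988 O-GlcNAc peaks, which is 7.44% (95% Wilson interval 6.92% to 8.00%), and 8.42% of the 7947 O-GlcNAc peaks with SPT5. They are called Pol II-free sites below, and they were compared mainly with the 7278 O-GlcNAc peaks that carried both SPT5 and Pol II, called Pol II sites. Another 1021 O-GlcNAc peaks carried neither factor, and 20 carried Pol II without SPT5.

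The peaks came from chromatin immunoprecipitation with sequencing (ChIP-seq) of BJAB, an established line of human B cells that came from a Burkitt's lymphoma. All libraries were made from this line with no treatment named in the labels, with antibodies to O-GlcNAc (RL2), SPT5, TRIM28 (TIF1b), OGA (NCOAT) and Pol II (8WG16), and with mouse and rabbit IgG, which were not analysed here. Each target had 1 library and no replicate, so no test of a difference was possible, and all intervals cover counting error within these lists only. Read depth is unknown for every list. The 5 lists held 8988 O-GlcNAc, 54885 SPT5, 43998 TRIM28, 2503 OGA and 19336 Pol II peaks on these chromosomes. Heights are the authors' fold enrichments over a background whose nature the sources used here do not give, and medians of height were compared only within 1 list.

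SPT5 is a subunit of DSIF, a factor that holds Pol II shortly after the start of a gene and then travels with it as it elongates, so SPT5 on chromatin is normally read together with polymerase. O-GlcNAc is added by the transferase OGT and removed by the hydrolase OGA, and among its nuclear carriers are the C-terminal repeats of Pol II itself. TRIM28 is a co-repressor recruited to DNA by zinc finger proteins of the KRAB family, and it has also been described as a factor of promoter-proximal pausing. The antibody 8WG16 binds the C-terminal repeats of Pol II with a preference for their poorly phosphorylated form, and a site with no peak of it is not shown to be without polymerase. The sites were chosen by the presence of an SPT5 peak and the absence of a Pol II peak, so SPT5 values and distances from Pol II are given as a description.

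TRIM28 was present at fewer of the Pol II-free sites than of the Pol II sites. TRIM28 peaks overlapped 195 of the 669 Pol II-free sites (29.1%, 25.8% to 32.7%) and 5149 of the 7278 Pol II sites (70.7%, 69.7% to 71.8%), while 60.4% of all O-GlcNAc peaks carried TRIM28. The difference was -41.6 percentage points (95% Newcombe interval -45.1 to -37.9). O-GlcNAc peaks with neither SPT5 nor Pol II lay lower still, at 77 of 1021 (7.54%, 6.08% to 9.33%). The intervals of these 3 shares did not overlap. Where TRIM28 was present its height was close in both classes, with a median fold enrichment of 3.01 (2.87 to 3.12) at Pol II-free sites and 2.94 (2.93 to 2.97) at Pol II sites, and both lay under the 3.49 of the whole TRIM28 list.

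OGA, the enzyme that removes the mark, had the shortest list, and few of the Pol II-free sites carried it. OGA peaks overlapped 25 of the Pol II-free sites (3.74%, 2.54% to 5.46%) and 554 of the Pol II sites (7.61%, 7.02% to 8.24%), and 6.72% of all O-GlcNAc peaks. The difference was -3.88 percentage points (-5.23 to -2.06), and its interval took in 0 when only peaks with a −log10 q of 5 or more were kept in each list (-1.97, -3.38 to 0.107) and with summits within 250 bp in place of overlap (-1.38, -2.79 to 0.356). Of the 25 Pol II-free sites with OGA, 20 also carried TRIM28. Among the sites with TRIM28, OGA was present at 20 of 195 Pol II-free sites (10.3%, 6.74% to 15.3%) and at 512 of 5149 Pol II sites (9.94%, 9.16% to 10.8%). Among the sites without TRIM28 it was present at 5 of 474 Pol II-free sites (1.05%, 0.451% to 2.45%) and at 42 of 2129 Pol II sites (1.97%, 1.46% to 2.66%). The intervals of the 2 classes thus overlapped once TRIM28 was held fixed, and 469 Pol II-free sites (70.1%) had neither TRIM28 nor OGA.

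**Figure D1:**
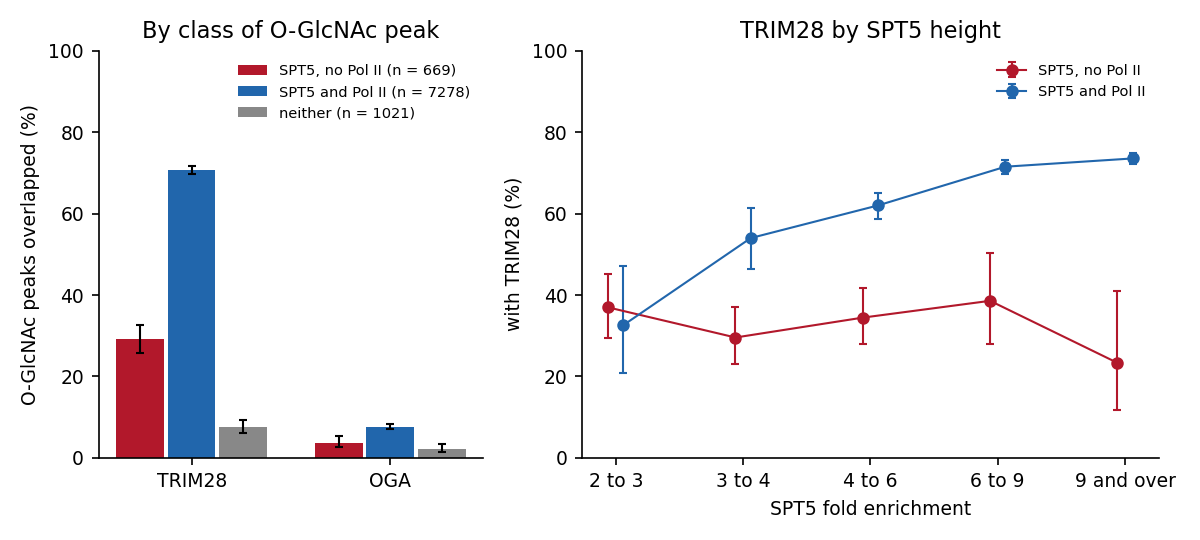
Left, share in percent of O-GlcNAc peaks overlapped by TRIM28 or OGA in the 3 classes of O-GlcNAc peak. Right, share with TRIM28 by class of SPT5 fold enrichment; bars are 95% Wilson intervals. TRIM28 lay at 29.1% of Pol II-free sites and 70.7% of Pol II sites, and the share climbed with SPT5 height in the Pol II sites and followed no steady order in the Pol II-free sites.

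SPT5 was lower and narrower where Pol II was missing. The highest SPT5 peak at each Pol II-free site had a median fold enrichment of 3.62 (interval of the median 3.41 to 3.79, quartiles 2.69 and 5.01), against 9.10 (9.02 to 9.18, quartiles 7.0 and 11.5) at Pol II sites. Only 27 Pol II-free sites (4.04%) reached the median of the Pol II sites. The SPT5 peak was a median of 487 bp wide (449 to 526 bp) at Pol II-free sites and 996 bp (984 to 1008 bp) at Pol II sites, and it was wider than 1 kb at 116 Pol II-free sites (17.3%) and 3596 Pol II sites (49.4%). In the whole SPT5 list the median fold enrichment was 3.3 and the median width 413 bp, and 385 of the 669 Pol II-free sites (57.5%) lay above that height. The SPT5 peak of a Pol II-free site thus stood at a median percentile of 59.2 in its list, and that of a Pol II site at 90.5. That median covers unlike groups described below: the median percentile was 0.160 at low sites and 85.6 at flank sites.

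**Figure D2:**
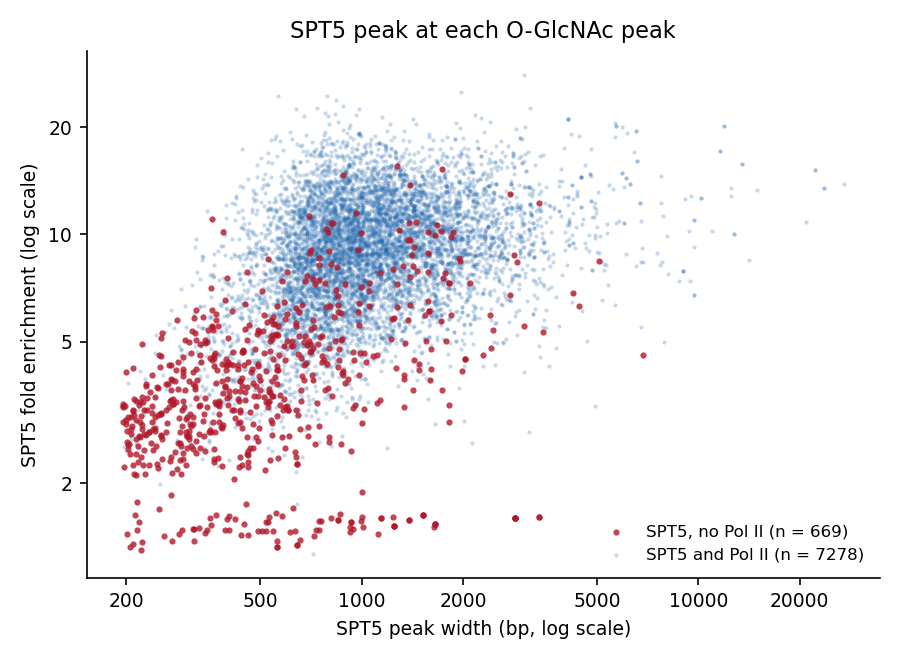
Fold enrichment (vertical, log scale) against width in bp (horizontal, log scale) of the highest SPT5 peak at each O-GlcNAc peak, 1 point per O-GlcNAc peak. Most Pol II-free sites lie lower and to the left of the Pol II sites, with medians of 3.62 and 487 bp against 9.10 and 996 bp, and a separate band lies under a fold enrichment of 2.

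When the Pol II-free sites were ranked by SPT5 height and divided into 3 groups of like size, TRIM28 was present at 22.3% of the lowest 224 (17.4% to 28.2%), 31.5% of the middle 222 (25.8% to 37.9%) and 33.6% of the highest 223 (27.8% to 40.1%). All 83 of the sites under an O-GlcNAc fold enrichment of 1.5, described below and none with TRIM28, were in the lowest group. Without them its share was 35.5% of 141 (28.0% to 43.6%). The 3 intervals overlapped both with and without these 83 sites. The share with TRIM28 differed also between sites with SPT5 peaks of like height. The upper classes of height include flank sites, described below, whose SPT5 peak reached a Pol II peak. Quartiles of SPT5 fold enrichment were 4.71 and 9.74 at the flank sites, against 2.90 and 4.79 at sites neither flank nor low. The classes were not split by flank. With an SPT5 fold enrichment of 4 to 6, TRIM28 was present at 62 of 180 Pol II-free sites (34.4%, 27.9% to 41.6%) and 550 of 887 Pol II sites (62.0%, 58.8% to 65.1%). Between 6 and 9 the counts were 27 of 70 Pol II-free sites (38.6%, 28.0% to 50.3%) and 1740 of 2433 Pol II sites (71.5%, 69.7% to 73.3%). At 9 and over they were 7 of 30 Pol II-free sites (23.3%, 11.8% to 40.9%) and 2755 of 3746 Pol II sites (73.5%, 72.1% to 74.9%). Of these classes from 2 upward, the one from 2 to 3 was the only one whose intervals overlapped, with 51 of 138 Pol II-free sites (37.0%, 29.4% to 45.3%) and 15 of 46 Pol II sites (32.6%, 20.9% to 47.0%); from 3 to 4 the shares were 29.6% of 159 Pol II-free sites (23% to 37.1%) and 54.0% of 163 Pol II sites (46.3% to 61.5%).

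Wider O-GlcNAc peaks carried TRIM28 more often in both classes, and the Pol II-free sites were the narrower ones, with a median O-GlcNAc width of 300 bp (285 to 311 bp) against 406 bp (402 to 412 bp) at Pol II sites. For O-GlcNAc peaks under 250 bp the share with TRIM28 was 24.1% of 232 Pol II-free sites (19.1% to 30.0%) and 64.2% of 1201 Pol II sites (61.4% to 66.9%). For those of 600 bp and over it was 45.3% of 53 Pol II-free sites (32.7% to 58.5%) and 75.9% of 1276 Pol II sites (73.4% to 78.1%). Without the low sites described below, the share in this widest class was 60.0% of 40 Pol II-free sites (44.6% to 73.7%), whose interval overlapped that of the Pol II sites.

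Seen from the SPT5 list, where 30.7% of all peaks carried TRIM28, O-GlcNAc went with a higher share of TRIM28. Among SPT5 peaks without Pol II, TRIM28 overlapped 185 of the 649 with O-GlcNAc (28.5%, 25.2% to 32.1%) and 5877 of the 38388 without (15.3%, 15.0% to 15.7%). OGA overlapped 23 of those with O-GlcNAc (3.54%, 2.37% to 5.26%) and 577 of those without (1.5%, 1.39% to 1.63%), against 3.21% of all SPT5 peaks. These 2 classes of SPT5 peak were close in height, with median fold enrichments of 3.31 with O-GlcNAc and 3.00 without. The order turned for SPT5 fold enrichments under 2, where TRIM28 overlapped 1 of 77 with O-GlcNAc (1.30%, 0.230% to 7.0%) and 238 of 730 without (32.6%, 29.3% to 36.1%). Of the 92 Pol II-free sites with SPT5 this low, 83 also had an O-GlcNAc fold enrichment under 1.5. These 83, described below, had no TRIM28 and lay largely in a few runs.

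The height of the O-GlcNAc peaks fell into 2 parts at the Pol II-free sites. Most had fold enrichments like those of Pol II sites: 449 Pol II-free sites (67.1%) and 5382 Pol II sites (73.9%) stood at 3 or more, and 43 (6.43%) and 360 (4.95%) at 8 or more. A second part lay apart at the bottom of the list. There were 83 Pol II-free sites (12.4%, 10.1% to 15.1%) under a fold enrichment of 1.5, against 2 of the 7278 Pol II sites (0.0275%), 28 of the 1021 peaks with neither factor (2.74%) and 1.26% of all O-GlcNAc peaks. Between 1.5 and 2 there were 11 Pol II-free sites. This division at 1.5 was set after seeing the values, and the 83 sites are called low sites below.

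**Figure D3:**
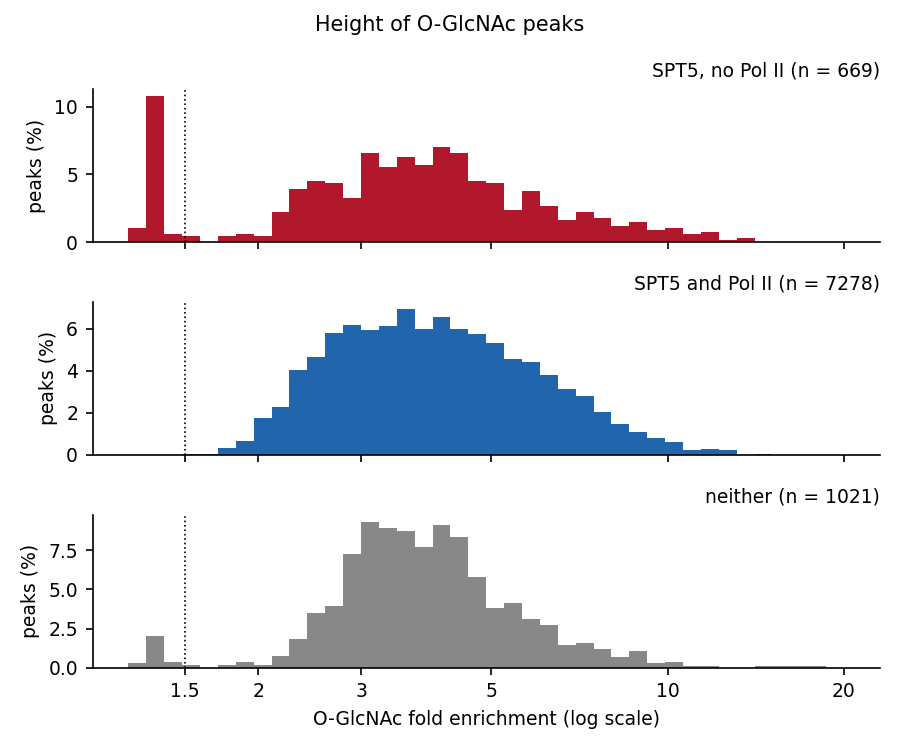
Fold enrichment of the O-GlcNAc peaks (horizontal, log scale) as a percentage of each class, for Pol II-free sites, Pol II sites and O-GlcNAc peaks with neither factor; the dotted line marks 1.5. The 83 Pol II-free sites left of the line form a separate group. Of the other classes, 2 of the 7278 Pol II sites and 28 of the 1021 peaks with neither factor lie left of it.

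The low sites shared features that the division did not use. None of the 83 carried TRIM28 or OGA, and a count of 0 allows up to 3.61% for each, taken as 3 counts of 83 (the Wilson upper limit was 4.42%). Many of the low sites lay close together in runs, described below, and limits and intervals for them do not allow for this. Their SPT5 peaks were also at the bottom of the SPT5 list, with fold enrichments of 1.29 to 1.89 and a median percentile of 0.160, yet a median width of 656 bp (545 to 865 bp). Only 9 of the other 586 Pol II-free sites had an SPT5 fold enrichment under 2, whereas all 83 low sites did. The lists differed in how far down they reached, on scales that may not be comparable: 1 of 43998 TRIM28 peaks, 1 of 2503 OGA peaks and 1 of 19336 Pol II peaks lay under 1.5, against 79 of 54885 SPT5 peaks and 113 of 8988 O-GlcNAc peaks. The same pair of deposited values, a fold enrichment of 1.32 with a −log10 q of 3.43, stood at 13 of the low sites, while no pair stood at more than 4 of the other 586.

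The low sites were crowded into a few stretches. Pol II-free sites within 100 kb of each other were joined into runs. The largest run held 29 sites in 49.1 kb of chromosome 16 (46386318 to 46435430), and the next held 19 sites in 34.5 kb of chromosome 2 (92290775 to 92325227). All 48 were low sites. In the run on chromosome 16 the O-GlcNAc fold enrichments lay between 1.27 and 1.38 and those of SPT5 between 1.38 and 1.62. In the run on chromosome 2 they lay between 1.27 and 1.40 for O-GlcNAc and between 1.32 and 1.60 for SPT5. No Pol II, TRIM28 or OGA peak lay inside either run, while 31 and 26 SPT5 peaks did. Each run began or ended within 1 kb of a long stretch with no peak of any of the 5 lists, 243 bp from one of 11.5 Mb on chromosome 16 and 827 bp from one of 3.00 Mb on chromosome 2. Smaller runs of low sites lay on chromosome 18, with 5 at 108021 to 110970 and 4 at 18517108 to 18520195, and on chromosome 19, with 4 at 27731962 to 27736529. The run on chromosome 19 was 7 bp from a stretch of 3.18 Mb without peaks, and the second on chromosome 18 was 3013 bp from one of 3.47 Mb. The first on chromosome 18 was not near such a stretch, the nearest being 6085435 bp away. Whether these stretches are unsequenced gaps or repeats of the build was not tested.

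**Figure D4:**
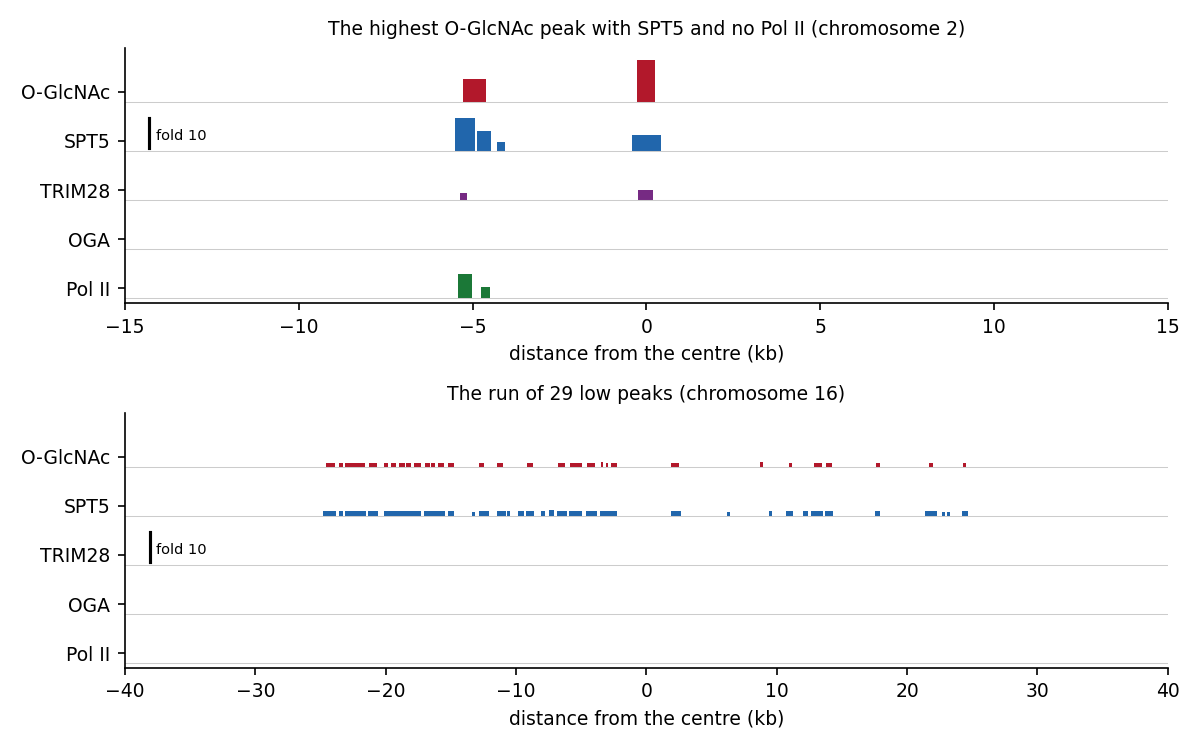
Peaks of the 5 lists around 2 places, by distance in kb from the centre; bar height is fold enrichment within each list, with a scale bar of 10. Above, the highest Pol II-free site carried SPT5 and TRIM28 and lay 4644 bp from a Pol II summit, and below, the 29 low sites on chromosome 16 lay among low SPT5 peaks with no TRIM28, OGA or Pol II peak.

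Without the low sites, 586 Pol II-free sites were left. TRIM28 was then present at 33.3% of them (29.6% to 37.2%) and OGA at 4.27% (2.91% to 6.22%). Their median SPT5 fold enrichment was 3.89 (3.71 to 4.14). Over all 669 Pol II-free sites the median O-GlcNAc fold enrichment was 3.63 (3.49 to 3.75), against 3.92 (3.87 to 3.98) at Pol II sites, and these intervals did not overlap. It was 3.92 (3.72 to 4.06) without the low sites, which were removed by that same height.

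The distance from Pol II ranged widely. Measured between summits, the nearest Pol II peak lay a median of 21643 bp from the O-GlcNAc peak (18636 to 26309 bp, quartiles 4129 and 90214 bp), and without the low sites it was 16712.5 bp (13072 to 19226 bp). It depended strongly on what counts as overlap: it was 646 bp with an overlap of 50% of the shorter peak and 3922 bp with summits within 250 bp, both of which admit peaks that Pol II touches. Pol II lay within 1 kb of 101 Pol II-free sites, from 1 to 5 kb of 84, from 5 to 20 kb of 138, from 20 to 100 kb of 192 and over 100 kb from 154. Low sites made up 77 of the 154 that were farthest away, and 0 of the 101 that were nearest. Peaks with neither SPT5 nor Pol II lay farther out, at a median of 66670 bp (59273 to 76538 bp).

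**Figure D5:**
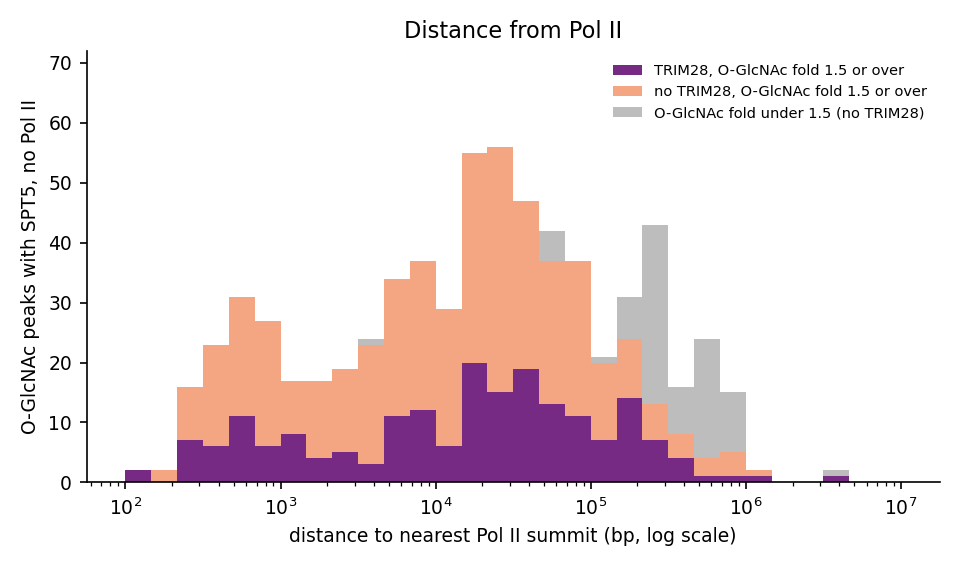
Number of Pol II-free sites by distance in bp from the O-GlcNAc summit to the nearest Pol II summit (log scale), stacked by TRIM28 and by O-GlcNAc height. The sites form a smaller group under 1 kb, a larger one around 20 kb, and low sites mostly over 100 kb.

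The share with TRIM28 was highest far from Pol II once the low sites were left out. It was 31.7% of 101 sites within 1 kb (23.4% to 41.3%), 28.9% of 83 from 1 to 5 kb (20.3% to 39.4%), 29% of 138 from 5 to 20 kb (22.1% to 37.0%), 33.7% of 187 from 20 to 100 kb (27.3% to 40.7%) and 46.8% of 77 over 100 kb (36.0% to 57.8%). The last interval overlapped those of 4 of 4 nearer classes, and with the low sites kept the share over 100 kb was 23.4% (17.4% to 30.7%). OGA showed no order with distance that its counts of 3 to 7 sites per class could resolve.

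A group of 83 other sites lay on the flank of a Pol II peak, with or without O-GlcNAc on it: their SPT5 peak reached a Pol II peak that the O-GlcNAc peak itself did not touch. These flank sites (12.4% of the 669) included none of the low sites. Their O-GlcNAc summits lay a median of 513 bp (427 to 576 bp) from the Pol II summit, with a median of 134 bp between the edges of the peaks. Their SPT5 peaks were high and broad, with a median fold enrichment of 7.32 (5.92 to 8.25) and a width of 1409 bp (1327 to 1571 bp). The breadth is partly built in, since the SPT5 peak had to reach from the O-GlcNAc peak to a Pol II peak. The SPT5 summit lay a median of 28 bp (17 to 39 bp) from the Pol II summit, and at 78 of the 83 it was closer to Pol II than the O-GlcNAc summit was. TRIM28 lay at 33 flank sites (39.8%, 29.9% to 50.5%), against 162 of the 503 sites that were neither flank nor low (32.2%, 28.3% to 36.4%), and OGA lay at 4 flank sites.

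The 503 sites that were neither flank nor low had an SPT5 peak of their own. It had a median fold enrichment of 3.66 (3.45 to 3.83) and a width of 420 bp (386 to 443 bp). The O-GlcNAc and SPT5 summits lay a median of 91 bp apart (81 to 98 bp), against 476 bp (396 to 580 bp) at flank sites, and 139 bp (137 to 142 bp) at Pol II sites. The spacing at flank sites follows in part from their choice by an SPT5 peak that reaches past the O-GlcNAc peak. Over all 669 Pol II-free sites the SPT5 summit was within 50 bp of the O-GlcNAc summit at 176 (26.3%, 23.1% to 29.8%), against 888 Pol II sites (12.2%, 11.5% to 13.0%). Narrower peaks leave less room between summits, and the part of SPT5 width in this difference was not tested. Where TRIM28 was present, its summit lay a median of 88 bp (76 to 104 bp) from that of O-GlcNAc at Pol II-free sites and 107 bp (103 to 111 bp) at Pol II sites. It was closer to the O-GlcNAc summit than the SPT5 summit was at 119 of 195 Pol II-free sites (61.0%, 54.0% to 67.6%) and at 3016 of 5149 Pol II sites (58.6%, 57.2% to 59.9%). OGA summits lay nearest, at a median of 33 bp (13 to 73 bp) in 25 Pol II-free sites and 74 bp (65 to 81 bp) in 554 Pol II sites.

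Chromosome 19 held the most Pol II-free sites. There they numbered 106, or 11.6% of its 912 O-GlcNAc peaks (9.70% to 13.9%), and 102 without low sites, which was 11.2% of its peaks at 1.5 or above (9.35% to 13.5%). TRIM28 was present at 21 of these 102, against 195 of all 586 Pol II-free sites that were not low (33.3%, 29.6% to 37.2%). The share on chromosome 19 was thus the lower, but no interval was computed for it. Chromosome 18 (15.7% of 121 O-GlcNAc peaks) and chromosome 16 (11.1% of 541) had shares as high only through low sites, and without them they stood at 8.93% (4.92% to 15.7%) and 5.88% (4.15% to 8.27%). On the other 19 autosomes the share without low sites ran from 4.68% to 8.33%. Chromosome 19 also had the most O-GlcNAc peaks of these chromosomes, 912 against 878 on chromosome 1, and runs were joined by distance alone. Runs were not counted over all O-GlcNAc peaks, so the part of peak density in them was not tested. Chromosome 19 held all but 1 of the runs of 4 or more Pol II-free sites that contained no low site, 5 of 6. The one with the most sites held 6 in 142 kb (991459 to 1133883), with fold enrichments of 3.56 to 7.35 for O-GlcNAc and 3.26 to 5.84 for SPT5, no TRIM28 or OGA at any of the 6, and 10 Pol II peaks elsewhere in the run. The exception was a run of 5 on chromosome 7 (102131063 to 102329371), where TRIM28 lay at 3 of the sites. Most Pol II-free sites stood alone: 480 of the 669 had no other within 100 kb.

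The Pol II peak nearest to a site carried O-GlcNAc at 343 of the 669 Pol II-free sites (51.3%, 47.5% to 55.0%), against 40.4% of all Pol II peaks (39.7% to 41.1%), where a Pol II peak nearest to several sites was counted for each. The interval does not allow for such sharing. The runs of 29 and 19 low sites held no Pol II peak, and lay at least 219796 and 442817 bp from a Pol II summit. Of the 323 Pol II-free sites within 20 kb of Pol II, the nearest Pol II peak carried TRIM28 at 201 (62.2%, 56.8% to 67.3%) against 60.5% of all Pol II peaks, OGA at 19 (5.88%, 3.8% to 9.0%) against 6.11%, and O-GlcNAc at 144 (44.6%, 39.3% to 50.0%) against 40.4%. Within 20 kb, the share of all Pol II peaks thus lay inside the interval for each of these targets. Another O-GlcNAc summit lay within 5 kb of 116 of the 586 Pol II-free sites that were not low (19.8%, 16.8% to 23.2%) and of 1014 of the 7276 Pol II sites at 1.5 or above (13.9%, 13.2% to 14.8%). At the flank sites the nearest other O-GlcNAc summit lay a median of 1170 bp away (869 to 8334 bp). It lay 34859 bp away (28649 to 41419 bp) at the 503 sites neither flank nor low, and 39324.5 bp away (37732 to 40848 bp) at these Pol II sites. A close neighbour was thus more usual at a flank site than at a site neither flank nor low. The 116 sites with a neighbour within 5 kb were not split by flank.

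Individual sites show the range. The highest O-GlcNAc peak among them, on chromosome 2 (232650902 to 232651413), had fold enrichments of 13.7 for O-GlcNAc, 5.01 for SPT5 and 3.06 for TRIM28, no OGA, and a Pol II summit 4644 bp away. The next, on chromosome 8 (143751172 to 143751556), had 13.6 for O-GlcNAc, 8.58 for SPT5 and 3.41 for TRIM28, and Pol II was 57355 bp away. The third, on chromosome 2 (130200843 to 130201220), had 12.4 for O-GlcNAc, 3.42 for SPT5 and 3.47 for TRIM28, with Pol II 738581 bp away. The fourth, on chromosome 9 (133424485 to 133424882), had 12.2 for O-GlcNAc, 4.03 for SPT5 and 4.78 for TRIM28. The fifth, on chromosome 19 (37263508 to 37264191), had 12.2 for O-GlcNAc and 3.16 for SPT5 and no TRIM28. None of these 5 carried OGA, and 4 of them had no Pol II peak within 20 kb.

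The sites with the highest SPT5 were of another kind, all on the flank of a Pol II peak. They lay on chromosome 5 (139555367 to 139555749, SPT5 15.6, O-GlcNAc 3.24), chromosome 2 (86667790 to 86668245, SPT5 15.2, O-GlcNAc 2.45) and chromosome 11 (507316 to 507508, SPT5 14.7, O-GlcNAc 3.53), at 1005, 636 and 262 bp from a Pol II summit. The site on chromosome 2 carried TRIM28 (6.15) and OGA (3.39), and the other two carried neither.

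The 5 sites with TRIM28 and the highest OGA were all free of flanking Pol II. On chromosome 1 (12141813 to 12142371) the fold enrichments were 17.5 for OGA, 3.39 for TRIM28, 3.37 for SPT5 and 3.43 for O-GlcNAc, 62746 bp from Pol II. On chromosome 7 (2019795 to 2020185) they were 13.9 for OGA, 4.85 for TRIM28, 4.14 for SPT5 and 6.68 for O-GlcNAc, 223544 bp from Pol II. The other three had OGA fold enrichments of 9.29 on chromosome 22 (50338705 to 50339368), 5.58 on chromosome 17 (39723635 to 39723894) and 5.54 on chromosome 15 (101874258 to 101874841), at 5603, 12043 and 39203 bp from Pol II. In the OGA list as a whole the median was 3.33, and it was 3.59 (2.86 to 5.1) at the 25 Pol II-free sites with OGA.

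The sites farthest from Pol II were on chromosome 13 (64649950 to 64650202), 3679 kb away, with O-GlcNAc at 5.90, SPT5 at 6.35 and TRIM28 at 4.86, on chromosome 11 (51588874 to 51589102), a low site 3458 kb away, and on chromosome 5 (160973608 to 160973893), 1125 kb away with no TRIM28. At the edge of the rule, the site on chromosome 19 (5340853 to 5341169) met a Pol II peak with 0 bp between and no overlap. Its nearest Pol II summit lay 254 bp away, toward lower coordinates. The site on chromosome 6 (2989805 to 2990059) stood 1 bp from a Pol II peak. Just outside, O-GlcNAc peaks on chromosome 1 (26662978 to 26663222) and chromosome 8 (145638386 to 145638632) overlapped Pol II by 1 bp. Their SPT5 fold enrichments were 3.47 and 5.00 inside the rule and 4.18 and 11.9 outside it.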

How the data were processed

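Per the labels' protocols, BJAB cells were fixed with formaldehyde, sonicated and precipitated with 1 antibody per library. The submitters' processing notes name, with no order, Bowtie2 2.1.0, Trimmomatic 0.30 and bcl2fastq 2.17, and, per the submitters' processing notes, coordinates are on hg19. Which caller, control and threshold made the peaks was not given in the sources used here. Files deposited by the authors hold 1 line per peak of 1 sample, with no pooling stated, in the narrowPeak layout. The deposited fold enrichment is a ratio to a background that is not given. The deposited −log10 p was not used, and the deposited −log10 q served as a threshold and in the search for repeated pairs of values. The deposited score, a whole-number form of the −log10 q, was not used. Summits are the deposited start plus the deposited summit position, and starts are printed counting from 1. Depth is unknown.

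Pol II-free sites were selected by overlap of at least 1 bp. Where several SPT5, TRIM28 or OGA peaks overlapped a site, the highest was used. Distances run to the nearest summit on the chromosome. Shares have 95% Wilson intervals, differences of shares Newcombe intervals and medians order-statistic intervals. No p-value was computed, because each target had 1 library and peaks are not replicates. The sites, classes and alternatives were chosen with earlier results of these data known; the division at 1.5, the flank sites, the runs and the classes of SPT5 height and O-GlcNAc width were added after seeing the values, as were the differences of shares. The sites named are the 5 highest by O-GlcNAc, the 3 highest by SPT5, the 3 farthest from Pol II, the 5 with TRIM28 and the highest OGA, and 2 on either side of the rule's edge. The interval code was tested on simulated data, and bedtools 2.31.1 gave the same counts of 669, 195 and 25 for sites, sites with TRIM28 and sites with OGA. Python 3.11.15, numpy 2.4.6, pandas 2.3.3, scipy 1.17.1 and matplotlib 3.10.9 were used. The reference tables were of another build (GRCh38), so genes, promoters and sequences at the sites were not analysed here.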

Additional observations from a re-analysis of the deposited data

Results flagged for a closer look

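Peaks outside chromosomes 1 to 22 were not part of the sites described, and O-GlcNAc peaks with SPT5 and no Pol II appeared there too. On chromosome X there were 33 among 263 O-GlcNAc peaks, 3 of them with TRIM28 and 2 with OGA, and 2 stood under a fold enrichment of 1.5. On the mitochondrial genome, all 5 O-GlcNAc peaks fell within 1 SPT5 peak of 16562 bp and no Pol II, TRIM28 or OGA peak overlapped them. Their O-GlcNAc fold enrichments were 1.32 to 1.33 and that of the SPT5 peak was 1.61. At the 83 low sites of chromosomes 1 to 22 the O-GlcNAc fold enrichments were 1.26 to 1.41 and the SPT5 ones 1.29 to 1.89, so the mitochondrial values lie inside both ranges. What the peaks of the mitochondrial genome and the low sites have in common was not tested.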

How the results depend on the processing

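No paired analysis was possible because each target had 1 library. Of 56 values, from 7 alternatives for each of 8 results, 31 stayed within the interval of the reported value (counts, within 1.5 times) and 25 moved. No value changed sign, but only the differences of shares could do so, since the other results cannot be negative. The cause of a move was not tested where the construction does not give it. With an overlap of 50% of the shorter peak the sites numbered 1155, since peaks that touch Pol II by less are then let in; TRIM28 lay at 34.7% of them (-30.7 percentage points against Pol II sites), SPT5 stood at 5.02 with a width of 717 bp, and Pol II was 646 bp away. With summits within 250 bp, TRIM28 lay at 40.8% (-24.7 points), the difference for OGA was -1.38 points, SPT5 stood at 4.66 with 646.5 bp, and Pol II was 3922 bp away. With a −log10 q of at least 5, which left 1 low site, TRIM28 lay at 25.0% (-28.4 points), the difference for OGA was -1.97 points, SPT5 stood at 4.28, and Pol II was 17641 bp away. With no Pol II peak within 1000 bp, SPT5 stood at 3.34 with 442 bp and Pol II was 32488 bp away. With peaks within 500 bp merged, SPT5 was 532 bp wide. Without low sites, an alternative chosen after seeing the data, TRIM28 lay at 33.3% (-37.5 points), SPT5 stood at 3.89 and Pol II was 16712.5 bp away. Adding chromosome X moved none of the 8 results. Without replicates, depths or controls, the absence of a peak cannot be told apart from a site under the threshold of that list.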
